A study of Mus musculus with 100 samples.

Results

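The heat shock chaperones described here are 10 genes, Hspa1a, Hspa1b, Hsph1, Dnajb1, Hsp90aa1, Hspb1, Hspa8, Hspe1, Hspd1 and Hspa5. They were chosen by name with earlier results of these data known, as were the other gene lists below. Shares called among them are therefore descriptions. All 10 were among the 17310 genes of the count table. RNA from whole mouse knee joints was sequenced in 100 libraries. Mice were MRL/MpJ, labelled as not susceptible to post-traumatic osteoarthritis (PTOA), C57BL/6, labelled as moderately susceptible, and STR/ort, a strain that develops osteoarthritis spontaneously. Mice were aged 10 weeks when injured, or when the 0-day joints were taken. The right knee was loaded once by tibial compression at 10-12 N, which ruptured the anterior cruciate ligament (ACL), and the left knee served as the uninjured contralateral joint. Joints were taken at 0-day, before injury (4 libraries per strain), and injured and contralateral joints 1-day, 1-week or 2-weeks later (4 or 5 libraries for each strain and joint). Anesthesia and analgesia accompanied the injury, so a contralateral joint came from an injured and treated animal and a 0-day joint did not.

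Chaperones bind proteins that are unfolded or newly made and help them reach or keep their fold. In the cytosol, heat, oxidants and other insults that unfold proteins release heat shock factor 1 (encoded by Hsf1), which binds heat shock elements, repeats of the letters GAA and TTC, and switches on the inducible chaperone genes. Hspa1a and Hspa1b encode the stress-inducible HSP70, and Hspa8 its abundant constitutive relative. Dnajb1 encodes the partner that delivers clients to these ATPases, and Hsph1 a relative that exchanges their nucleotide. Hsp90aa1 encodes the inducible cytosolic HSP90, and Hspb1 a small heat shock protein that holds unfolded clients and interacts with the actin cytoskeleton. Hspd1 and Hspe1 encode the chaperonin and co-chaperonin of the mitochondrial matrix. Hspa5 encodes the chaperone of the endoplasmic reticulum (ER), which is controlled by the unfolded protein response rather than by heat shock factors.

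Sequence just before the RefSeq start of 7 of the genes is shown to let a reader see which of them carry the letters of a heat shock element or of an ER stress element there. The stretches are the RefSeq sequences of GRCm38.p6, read 5′ to 3′ on the strand of the gene. They cover positions -150 to -1 from the start, except for shorter parts around the marked letters in Hsph1 (-150 to -25), Hspe1 (-95 to -66) and Hspa5 (-70 to -41). Capitals mark a heat shock element pair (GAANNTTC or TTCNNGAA, N being any base) in the first 5 and the ER stress response element (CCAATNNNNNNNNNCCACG) in Hspa5, and the stretch of Dnajb1 held neither.
Hspa1a: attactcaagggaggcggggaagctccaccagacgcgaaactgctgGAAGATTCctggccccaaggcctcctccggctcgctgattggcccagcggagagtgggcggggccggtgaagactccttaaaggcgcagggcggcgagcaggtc
Hspa1b: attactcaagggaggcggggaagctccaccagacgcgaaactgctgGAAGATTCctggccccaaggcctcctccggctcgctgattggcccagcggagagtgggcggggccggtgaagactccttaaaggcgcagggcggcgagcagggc
Hsph1: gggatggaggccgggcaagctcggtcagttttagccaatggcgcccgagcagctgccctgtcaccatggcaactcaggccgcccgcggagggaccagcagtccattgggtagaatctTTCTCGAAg
Hspb1: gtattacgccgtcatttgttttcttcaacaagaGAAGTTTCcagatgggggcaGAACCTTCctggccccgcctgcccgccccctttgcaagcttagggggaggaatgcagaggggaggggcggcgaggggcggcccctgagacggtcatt
Hspe1: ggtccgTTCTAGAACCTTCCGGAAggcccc
Dnajb1: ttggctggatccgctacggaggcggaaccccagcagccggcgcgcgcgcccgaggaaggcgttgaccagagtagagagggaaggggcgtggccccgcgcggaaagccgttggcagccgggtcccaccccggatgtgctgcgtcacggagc
Hspa5: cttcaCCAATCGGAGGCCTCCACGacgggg

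The stretches lie at chr17:34972157-34972306 (minus strand) for Hspa1a, chr17:34959239-34959388 (minus strand) for Hspa1b, chr5:149636361-149636486 (minus strand) for Hsph1, chr5:135887769-135887918 (plus strand) for Hspb1, chr1:55088053-55088082 (plus strand) for Hspe1, chr8:83608025-83608174 (plus strand) for Dnajb1 and chr2:34772020-34772049 (plus strand) for Hspa5. Those of Hspa1a and Hspa1b are identical at 149 of 150 bases and carry the same pair. In Hspe1 the capitals join 3 overlapping pairs, and these letters also fall within a promoter window of Hspd1, which is transcribed the other way from the same region. Over 32851 promoter windows of 300 bases, searched on both strands, 15.1% held at least 1 heat shock element pair and 0.119% held the ER stress response element. Gene coordinates below are those of GENCODE, which starts some genes elsewhere, so that 16 bases of the Hsph1 stretch and all 30 of the Hspa5 stretch lie inside those genes as GENCODE gives them. These matches describe letters and not binding, and the table gave promoter windows for 8 of the 10 genes, Hsp90aa1 and Hspa8 being the exceptions.

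Several of the genes share sequence with other loci, which limits what a read count can assign. Hspa1a (chr17:34969190-34972156) and Hspa1b (chr17:34956436-34959238) lie on the minus strand of mm10, 9951 bases apart, and 60.3% of the 50-base windows of Hspa1a and 62.3% of those of Hspa1b also occur in another gene, nearly all in each other. The division of reads between these 2 genes is therefore uncertain, and their sum is given for several comparisons. Such windows made up 74.8% of Hspa8 (chr9:40800984-40810087), 58.5% of Hsp90aa1 (chr12:110690605-110702728), 51.6% of Hspb1 (chr5:135887919-135889563), 44.8% of Hspd1 (chr1:55077835-55088243) and 36.1% of Hspe1 (chr1:55088132-55091307), with pseudogenes among the loci that held them. Hspd1 and Hspe1 also overlap by 112 bases on opposite strands. Dnajb1 (chr8:83608193-83612653) shared 0.441% of its windows, and Hsph1 (chr5:149614287-149636376) and Hspa5 (chr2:34771970-34777547) shared 0%.

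Libraries held between 6182016 and 20986027 counts (median 10582592). Libraries of 2-weeks form experimental batch 2 and all others batch 1, so levels at 2-weeks cannot be told apart from the batch. Levels below are CPM, the counts of a gene relative to the total of its library, after TMM scaling over all libraries, and differences are log2 fold changes ± SE from edgeR's quasi-likelihood test with Benjamini-Hochberg adjustment over all genes. The word called is used for a difference of more than 1.5-fold at an adjusted p under 0.05. No marker gene of muscle, cartilage, bone, marrow, synovium, fat or endothelium examined here was at 0 in these whole joints, so a gene's level mixes several tissues. In such bulk samples a different number of cells of a type and a different amount of RNA per cell cannot be told apart.

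In joints of uninjured 10-week-old mice, 5 of the chaperones were called higher in STR/ort against each of MRL/MpJ and C57BL/6. Hspa1a and Hspa1b differed by more than 10-fold and Dnajb1 by more than 2-fold, and Hsph1 and Hspb1 were the others. Between STR/ort and MRL/MpJ 5 of the 10 genes were called, all higher in STR/ort, where 14.8% of all genes were called in either direction. Between STR/ort and C57BL/6 6 of 10 were called, again all higher, beside 13.8% of all genes. Between C57BL/6 and MRL/MpJ 0 of 10 were called by edgeR or by DESeq2, beside 15.9% of all genes, and 2 of the 10 had an unadjusted p below 0.05. The median log2 fold change over the 10 genes was 0.64 against MRL/MpJ and 0.85 against C57BL/6, where that over all genes was 0.01 and -0.06.

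Hspa1a stood at 14.7, 9.83, 14.2 and 12.8 CPM in the 4 STR/ort libraries, at 1.098, 0.465, 0.861 and 1.72 CPM in MRL/MpJ and at 0.453, 1.21, 0.274 and 1.28 CPM in C57BL/6. The lowest STR/ort library held 83 reads of the gene and the highest library of the other strains 15, so the groups did not overlap but the lower levels rest on few reads. The difference was 3.68 ± 0.30 from MRL/MpJ (adjusted p = 3.35e-08) and 3.94 ± 0.29 from C57BL/6 (adjusted p = 9.64e-09). Hspa1b followed the same pattern, at 18.3, 15.5, 26.6 and 19.0 CPM in STR/ort, 1.70, 0.930, 1.38 and 0.862 CPM in MRL/MpJ and 2.44, 1.53, 0.822 and 1.47 CPM in C57BL/6. Its differences were 3.98 ± 0.26 (adjusted p = 1.51e-09) and 3.62 ± 0.23 (adjusted p = 1.35e-09). With reads of both genes summed, the level was 32.7 ± 6.35 CPM in STR/ort (SD, n = 4) against 2.25 ± 0.617 CPM in MRL/MpJ and 2.37 ± 0.852 CPM in C57BL/6, so the strain difference did not depend on how reads were divided between the pair.

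Dnajb1, the partner of these ATPases, was at 102, 113, 96.9 and 89.2 CPM in STR/ort and between 36.1 and 49.5 CPM in all 8 libraries of the other strains. The STR/ort libraries lay above all the others, with differences of 1.28 ± 0.10 (adjusted p = 8.24e-09) and 1.30 ± 0.09 (adjusted p = 7.33e-09) against MRL/MpJ and C57BL/6. Hsph1, the nucleotide exchange factor, was at 166, 176, 271 and 236 CPM in STR/ort, 114 to 123 CPM in MRL/MpJ and 105 to 109 CPM in C57BL/6. The STR/ort libraries were again all higher but spread more widely, and the differences were 0.83 ± 0.11 (adjusted p = 1.54e-05) and 0.95 ± 0.11 (adjusted p = 4.36e-06).

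**Figure D1:**
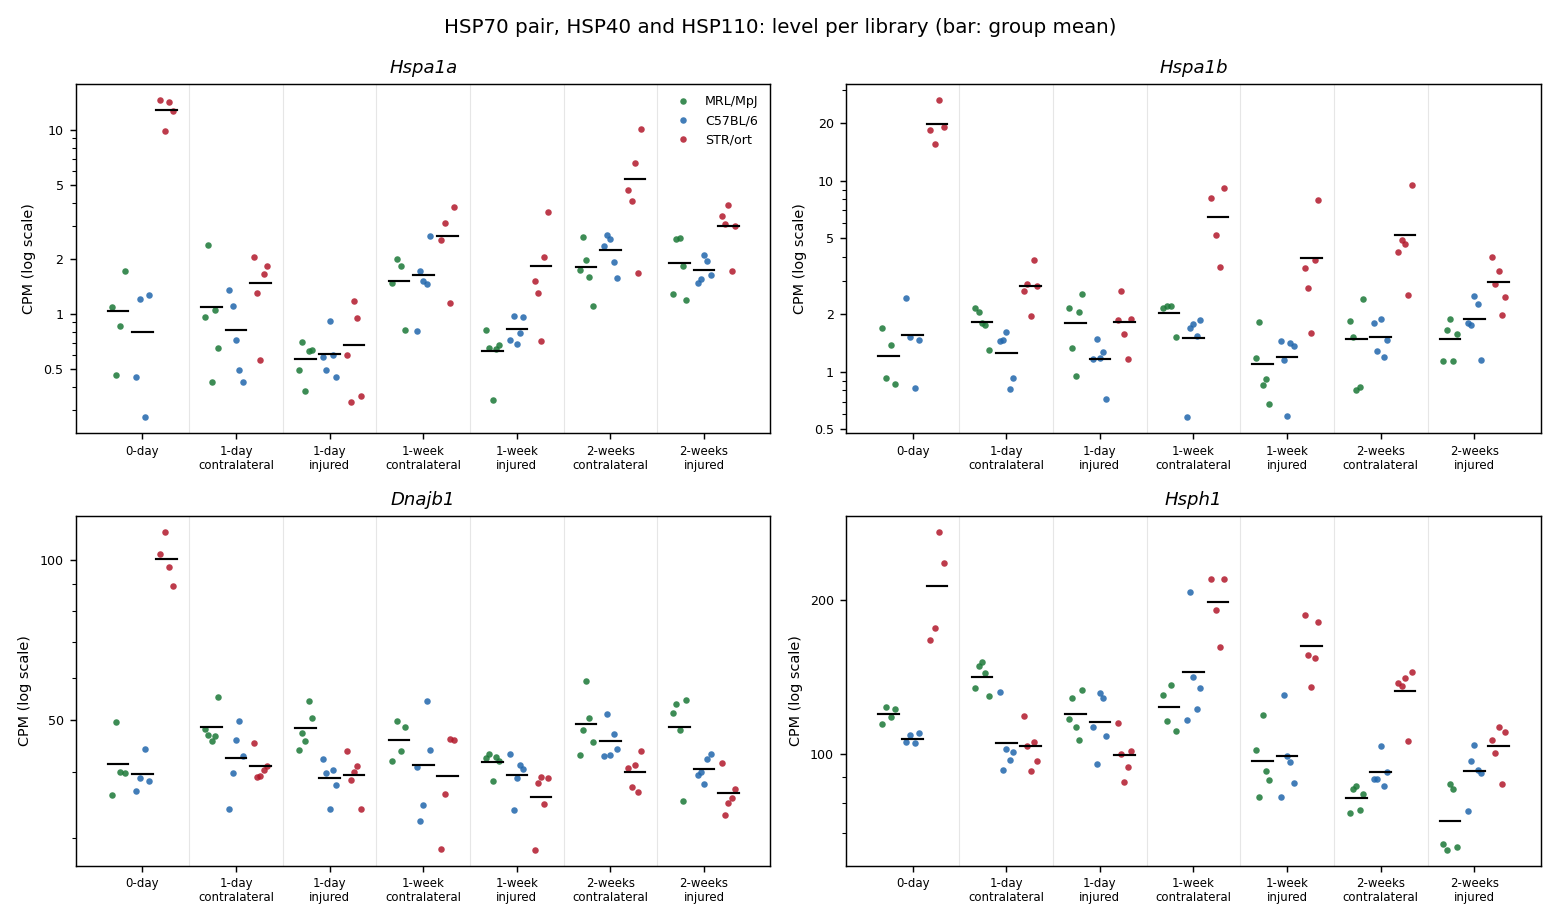
Levels of Hspa1a, Hspa1b, Dnajb1 and Hsph1 in CPM on a log axis, with 1 point per library, a bar at each group mean, and groups ordered by time and joint (green MRL/MpJ, blue C57BL/6, red STR/ort). For Hspa1b and Dnajb1 the STR/ort libraries at 0-day lie above every other library, and their lowest values are 15.5 and 89.2 CPM.

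Hspb1 was at 41.9, 42.4, 55.1 and 73.3 CPM in STR/ort, above the 26.2 to 31.4 CPM of MRL/MpJ and the 18.2 to 24.3 CPM of C57BL/6. It was called in both comparisons, at 0.84 ± 0.14 (adjusted p = 0.000174) and 1.26 ± 0.14 (adjusted p = 2.77e-06). The second call was lost when 2 factors estimated from 25 housekeeping genes were removed (RUVg), which left 0.44. Hsp90aa1 was called only against C57BL/6, at 0.75 ± 0.15 (adjusted p = 0.000824), and its STR/ort libraries split into 666.9 and 702.3 CPM on one side and 1253 and 1072 CPM on the other. The C57BL/6 libraries stood at 499.9 to 569.9 CPM and those of MRL/MpJ at 579.9 to 775.9 CPM, so the MRL/MpJ and STR/ort ranges overlapped. This call was lost without STR/ort replicate 3 (0.57) and with 1 or 2 RUVg factors, which brought the difference down to as little as 0.31.

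The constitutive and organelle chaperones differed less. Hspa8 was at 2713 to 2989 CPM in STR/ort, above the 2059 to 2285 CPM of MRL/MpJ and the 1790.2 to 2099.6 CPM of C57BL/6, but its differences of 0.39 (adjusted p = 0.00139) and 0.53 (adjusted p = 0.00011) were below the fold threshold. The mitochondrial pair was also below the fold threshold, with 0.24 (adjusted p = 0.0349) and 0.47 (adjusted p = 0.000338) for Hspe1 and 0.14 (adjusted p = 0.132) and 0.23 (adjusted p = 0.0164) for Hspd1. Hspd1 in STR/ort started at 343.9 CPM and overlapped with MRL/MpJ, which reached 345.1 CPM. Hspa5 showed 0.24 (adjusted p = 0.0482) and 0.23 (adjusted p = 0.0569), and its ranges overlapped with both.

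**Figure D2:**
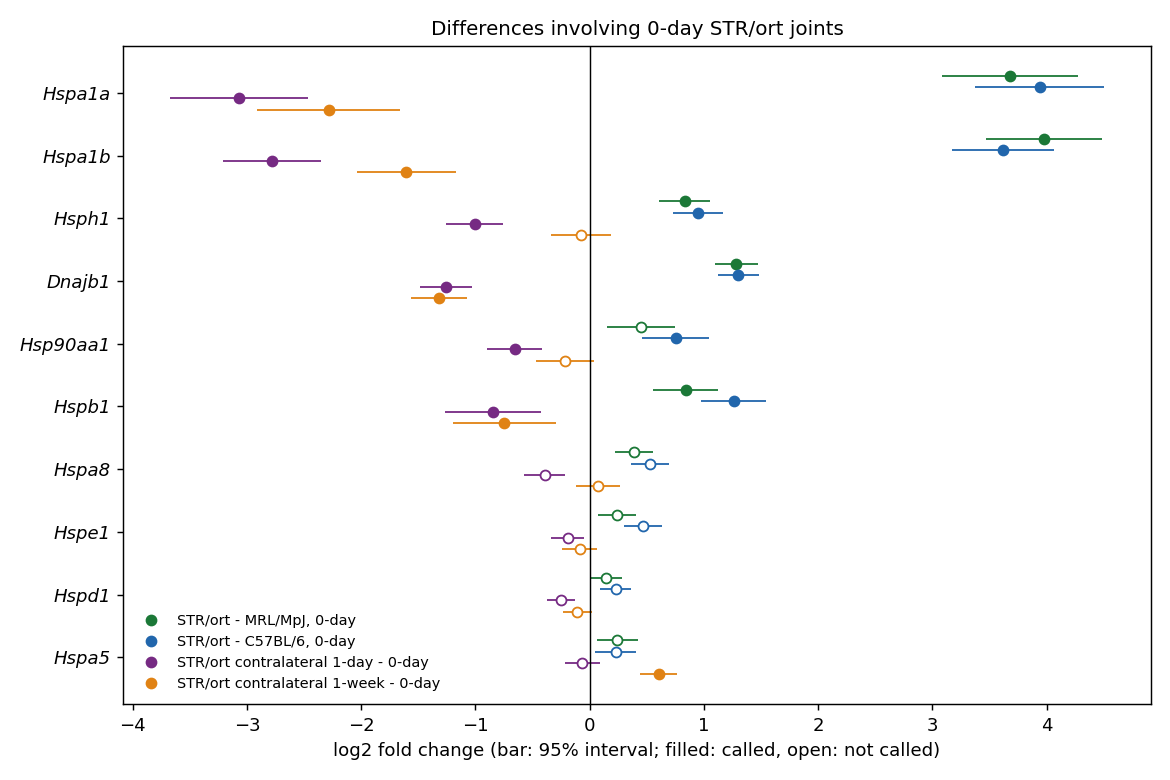
Log2 fold changes with 95% intervals for the 10 genes in the 0-day strain comparisons and in STR/ort contralateral joints against 0-day, filled where called. Hspa1a and Hspa1b lie farthest from 0 in STR/ort against both strains (3.62 to 3.98), and Hspd1 is closest to 0 against MRL/MpJ (0.14).

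Other genes moved with this difference. The immediate early genes, transcription factors and regulators that cells switch on within minutes of a stimulus, were called higher in STR/ort for 13 of 13 against both strains, with sums of 1684 to 3087 CPM in STR/ort, 396 to 426 CPM in MRL/MpJ and 345 to 434 CPM in C57BL/6. Slow muscle markers were higher for 6 of 6 against both, at 609 to 1452 CPM in STR/ort, 134 to 387 CPM in MRL/MpJ and 82.5 to 141 CPM in C57BL/6. Fast muscle markers were higher for 9 of 9 against C57BL/6 and 0 of 9 against MRL/MpJ. Synovial fibroblast markers were higher for 3 of 4 against MRL/MpJ and for 2 of 4 against C57BL/6, where 1 was lower, with sums of 2549.6 to 6159 CPM in STR/ort, 988 to 1346 CPM in MRL/MpJ and 1521 to 2652 CPM in C57BL/6. The part of these tissues and of the immediate early genes in the chaperone difference was not tested. Hsf1 itself was not called, at -0.00 against MRL/MpJ and 0.10 against C57BL/6, nor was Hsp90ab1, the constitutive cytosolic HSP90, at 0.24 (adjusted p = 0.059) and 0.48 (adjusted p = 0.000657).

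The high levels of STR/ort at 0-day were not found in its contralateral joints at 1-day. One day after injury, 6 of the 10 genes were lower in STR/ort contralateral joints than in STR/ort 0-day joints and 0 were higher, beside 10% of all genes called in either direction. The 6 were Hspa1a, Hspa1b, Dnajb1, Hsph1, Hspb1 and Hsp90aa1, the 6 that were higher in STR/ort than in C57BL/6 at 0-day. These comparisons share the 4 STR/ort 0-day libraries, so their agreement is not independent. The same comparison called 0 of 10 in MRL/MpJ, beside 0.0867% of all genes, and 0 of 10 in C57BL/6, beside 0.0635%, with edgeR and with DESeq2, and 0 and 1 of the 10 had an unadjusted p below 0.05. Whether the change differed between strains was not tested.

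Hspa1a in STR/ort contralateral joints was at 0.561 to 2.03 CPM at 1-day, where the 0-day joints had been at 9.83 to 14.7 CPM, a change of -3.07 ± 0.31 (adjusted p = 4.42e-09). Hspa1b was at 1.962 to 3.84 CPM, a change of -2.78 ± 0.22 (adjusted p = 9.58e-12). Dnajb1 was at 39.2 to 45.3 CPM (-1.26 ± 0.12, adjusted p = 4.86e-10) and Hsph1 at 92.5 to 118 CPM (-1.01 ± 0.13, adjusted p = 3.47e-07). In each of these 4 genes no contralateral library reached the lowest 0-day library. The share of all genes separated in this way was not counted. Contralateral libraries of Hspa1a, Dnajb1 and Hsph1 lay within the range of the MRL/MpJ and C57BL/6 libraries of batch 1. Hspa1b reached 3.84 CPM, above the 2.56 CPM of the highest of those libraries. Hspb1 fell by 0.84 on the log2 scale (adjusted p = 0.00261) and Hsp90aa1 by 0.66 (adjusted p = 9.87e-05). The calls of these last 2 genes were lost with 1 and with 2 RUVg factors, which left -0.09 for Hspb1 with 1 factor. That of Hsp90aa1 was also lost without 0-day replicate 3 or replicate 4 (at the least -0.48), and that of Hsph1 with 1 RUVg factor (-0.54).

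At 1-week the pattern in STR/ort contralateral joints against 0-day was mixed, with 4 genes lower and 1 higher, beside 13.8% of all genes called. Hspa1a (-2.28 ± 0.32, adjusted p = 6.63e-07), Hspa1b (-1.61 ± 0.22, adjusted p = 5.15e-07) and Dnajb1 (-1.32 ± 0.12, adjusted p = 7.06e-10) were still lower. Hspb1 was lower by a smaller amount (-0.75 ± 0.23, adjusted p = 0.0103), a call that was lost without 0-day replicate 4 or contralateral replicate 3 (-0.56 at the least) and with the RUVg factors, which left -0.07 with 1 factor. Hsph1 was not lower at this time (-0.07), with contralateral joints at 161 to 220 CPM. Hspa5 was higher (0.60 ± 0.08, adjusted p = 4.99e-07), a fold change just above the threshold that fell below it under 5 alternatives and without any 1 of 4 libraries, 0-day replicates 1 and 2 and contralateral replicates 1 and 4, with 0.50 as the lowest value. In MRL/MpJ and C57BL/6 0 of 10 were called at 1-week against 0-day, beside 0% and 5.69% of all genes, with 1 and 6 unadjusted p-values below 0.05. DESeq2 called 0 and 1, the latter being Hspb1 in C57BL/6.

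Other genes changed in the same STR/ort joints. Immediate early genes were lower for 13 of 13 at 1-day and at 1-week (sums of 378 to 1190 CPM and 357 to 515 CPM), and fast muscle markers for 9 of 9 at both times. Slow muscle markers were lower for 2 of 6 and 3 of 6. Synovial fibroblast markers were higher for 2 of 4, with 1 lower, at 1-day and for 3 of 4 at 1-week, with sums from 2549.6 to 6159 CPM at 0-day and from 6499.9 to 9240.5 CPM at 1-day. Macrophage markers were higher for 1 and 2 of 4, with sums of 209 to 261 CPM at 0-day and 305 to 364 CPM at 1-day. Their part in the chaperone change was not tested, and 0-day and contralateral joints came from different animals.

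Over the 9 comparisons of injured with contralateral joints, 4 of 90 pairs of gene and comparison were called without pairing of the joints, and 3 of the 4 were a higher Hspb1 at 1-day. Of all genes 1.16% to 9.21% were called in these comparisons, so calls were no rarer among the chaperones than among all genes. At 1-day Hspb1 was the 1 gene of 10 called in MRL/MpJ, in C57BL/6 and in STR/ort, beside 2.02%, 5.6% and 4.31% of all genes. At 1-week 0 of 10 were called in each strain by edgeR and by DESeq2 without pairing, beside 3.13%, 5.82% and 9.21% of all genes in MRL/MpJ, C57BL/6 and STR/ort, and 5, 6 and 3 of the 10 had an unadjusted p below 0.05. At 2-weeks 0 of 10 were called in MRL/MpJ and in C57BL/6 by both tools, beside 1.16% and 2.95% of all genes, with 0 and 1 unadjusted p-values below 0.05. In STR/ort 1 of 10 was called at 2-weeks, a lower Hspa1b, beside 4.66% of all genes. With joints paired by the animal labels of 2-weeks, Hspa1a was also called lower in STR/ort at that time. No label names the animal at 1-week. With STR/ort joints of 1 number taken as pairs there, from their correlations alone, Hspa1a and Hspa1b were called lower. That fit sets aside the unpaired injured replicate 5.

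Of the 7 other genes 0 were called with injury at any time in the unpaired fits, and Hspa5 is described further on. Over the 9 comparisons the difference of Hsph1 ranged from -0.51 in C57BL/6 at 1-week (adjusted p = 0.0116) to 0.13, that of Dnajb1 from -0.17 to 0.01, and that of Hsp90aa1 from -0.28 to 0.12. Hspa8 ranged from -0.19 to 0.17, Hspe1 from -0.25 to 0.12 and Hspd1 from -0.27 to 0.18.

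Hspb1 at 1-day was at 50.9, 97.7, 58.8, 63.8 and 122 CPM in injured MRL/MpJ joints and 35.5, 41.5, 24.5, 29.5 and 21.9 CPM in contralateral ones. Injured STR/ort joints held 164, 70.6, 90.9, 56.5 and 45.7 CPM and contralateral ones 31.8, 35.6, 26.1, 34.0 and 17.6 CPM. In both strains every injured joint was above every contralateral joint. Injured C57BL/6 joints held 47.8, 21.03, 40.1, 59.2 and 28.9 CPM and contralateral ones 28.7, 24.7, 18.4, 16.2 and 15.7 CPM, so here the groups overlapped. The differences were 1.39 ± 0.30 in MRL/MpJ (adjusted p = 0.00414), 0.95 ± 0.31 in C57BL/6 (adjusted p = 0.0298) and 1.55 ± 0.30 in STR/ort (adjusted p = 0.000657). The C57BL/6 call was lost without injured replicate 1 or 4, or contralateral replicate 3, 4 or 5, with values from 0.74 to 1.101 over all libraries left out.

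**Figure D3:**
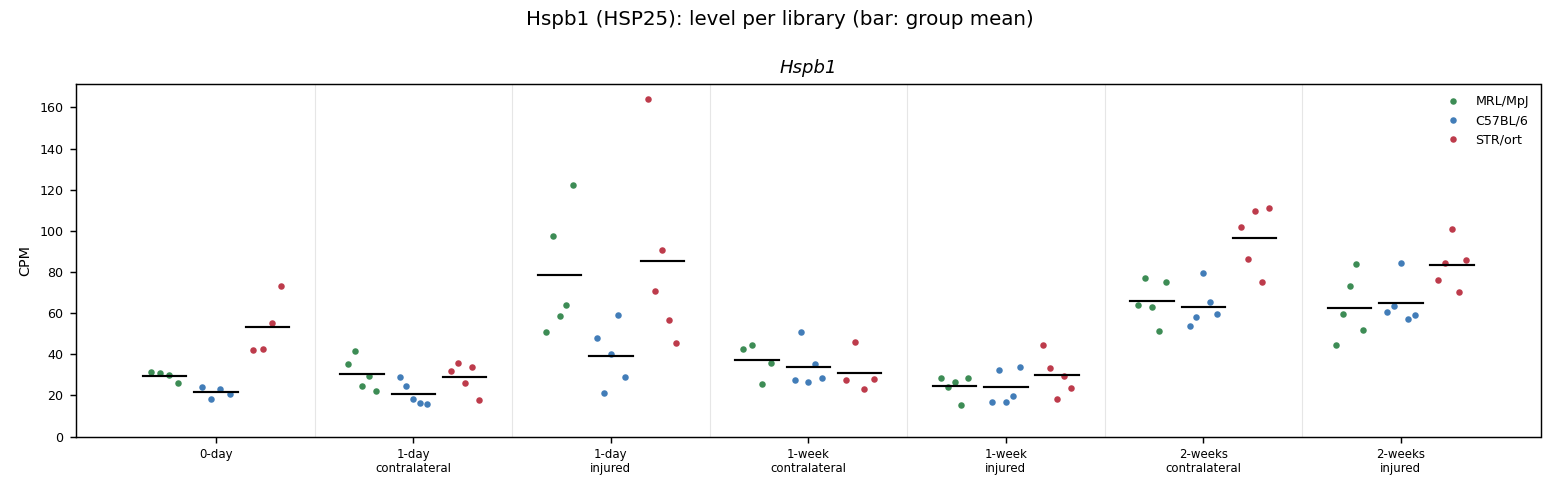
Level of Hspb1 in CPM on a linear axis, 1 point per library with a bar at the group mean, for each strain, time and joint. At 1-day the injured joints of MRL/MpJ (50.9 to 122 CPM) and STR/ort (45.7 to 164 CPM) lie above their contralateral joints, and at 2-weeks, a separate batch, the ranges of injured and contralateral joints overlap in each strain.

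The response of Hspb1 at 1-day was not shown to differ between strains. The difference of the injury changes was 0.16 for STR/ort minus MRL/MpJ (95% interval -0.66 to 0.98), 0.60 for STR/ort minus C57BL/6 (-0.25 to 1.44) and -0.44 for C57BL/6 minus MRL/MpJ (-1.28 to 0.41). Each interval reaches past 1.5-fold in at least 1 direction. By 1-week the injury difference of Hspb1 was -0.55 in MRL/MpJ, -0.46 in C57BL/6 and -0.07 in STR/ort, and at 2-weeks -0.08, 0.04 and -0.20, none of them called. Of the markers of other cells, synovial fibroblast genes were higher with injury at 1-day for 3 of 4, 4 of 4 and 2 of 4 in MRL/MpJ, C57BL/6 and STR/ort, macrophage genes for 1, 2 and 1 of 4, and fast muscle genes were lower for 7 of 9 in STR/ort. Their part in the rise of Hspb1 was not tested.

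Hspa5, the ER chaperone, was higher in every injured joint than in any contralateral joint at 1-day in all 3 strains, but by less than the fold threshold. It was at 663 to 718 CPM in contralateral and 810 to 846 CPM in injured MRL/MpJ joints, a difference of 0.29 (adjusted p = 0.0143). In C57BL/6 it was at 576 to 678 and 726 to 1038 CPM (0.47, adjusted p = 1.45e-05), and in STR/ort at 663 to 789 and 905 to 1046 CPM (0.42, adjusted p = 0.000125). At 1-week the difference was 0.24 (adjusted p = 0.106), 0.21 (adjusted p = 0.0955) and 0.32 (adjusted p = 0.00683), and at 2-weeks 0.05, 0.14 and 0.10.

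Hspa1a and Hspa1b gave no call for a higher level with injury. The injury difference of Hspa1a was -0.88, -0.35 and -1.06 at 1-day in MRL/MpJ, C57BL/6 and STR/ort (adjusted p = 0.309, 0.652 and 0.0701), and -1.23, -0.93 and -0.50 at 1-week (adjusted p = 0.126, 0.121 and 0.332). Hspa1b was at 0.03, -0.07 and -0.67 at 1-day and -0.89, -0.30 and -0.70 at 1-week. With the reads of both genes summed, STR/ort at 1-day was called lower (-0.78, adjusted p = 0.0234). Injured and contralateral STR/ort joints of 1 number were taken as a block at 1-week, on their correlations alone, as no label names the animal. In this fit Hspa1a (-0.92, adjusted p = 0.013) and Hspa1b (-1.15, adjusted p = 0.000451) were called lower in STR/ort, from the 4 complete pairs. Injured replicate 5, the highest injured library of that group for both genes, has no partner and carries no weight in the blocked fit. Leaving it out without the block gave the same size of difference, -0.91 (adjusted p = 0.0574) for Hspa1a and -1.15 (adjusted p = 0.00432) for Hspa1b. Marker sums also differed between these STR/ort joints at 1-week. Marrow neutrophil markers were at 8099 to 11560 CPM in injured and 13225 to 17711 CPM in contralateral joints. Endothelium markers were at 303 to 386 CPM and 214 to 260 CPM. Their part in the Hspa1a and Hspa1b differences was not tested.

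At 2-weeks Hspa1b in STR/ort was at 4.02, 2.90, 3.36, 1.98 and 2.47 CPM in injured joints and 4.23, 4.89, 4.69, 2.52 and 9.56 CPM in contralateral joints. The ranges overlapped, and the difference was -0.81 ± 0.26 (adjusted p = 0.0361). Its call was lost without injured replicate 2, 4 or 5 or contralateral replicate 5, and when STR/ort joints were fitted alone. Under the alternatives the difference stayed between -0.83 and -0.77. Hspa1a was at 3.39, 3.07, 3.93, 1.71 and 2.999 CPM in injured and 4.69, 4.14, 6.66, 1.68 and 10.1 CPM in contralateral joints. The difference of Hspa1a was -0.83 (adjusted p = 0.051). With the reads of both genes summed, the difference was called (-0.82, adjusted p = 0.0228). The labels of 2-weeks name the animal of each joint, and with the animal as a block Hspa1a was called (-0.79, adjusted p = 0.00577) and Hspa1b stayed called (-0.77, adjusted p = 0.0274). Without contralateral replicate 5, the highest library for both genes, the unblocked difference of Hspa1b was -0.44. Summed cartilage markers were at 3898 to 5708 CPM in these injured and 2271 to 3398 CPM in these contralateral joints, and their part was not tested.

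**Figure D4:**
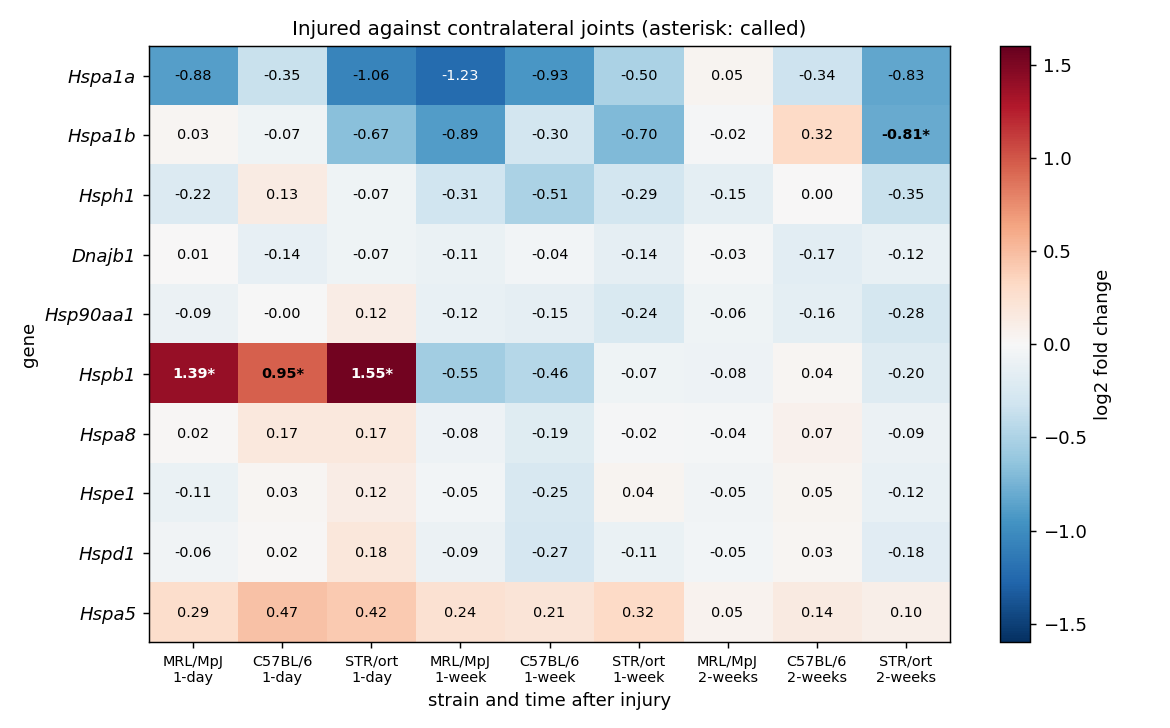
Log2 fold changes of injured against contralateral joints for the 10 genes (rows) in 3 strains at 3 times (columns), coloured from lower to higher, with an asterisk where called. The 4 asterisks are Hspb1 at 1-day in each strain (1.39, 0.95 and 1.55) and Hspa1b in STR/ort at 2-weeks (-0.81).

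The injury change of the 10 genes was not shown to differ between strains at any time. Of 90 interaction terms 0 were called by edgeR or DESeq2, 9 had an unadjusted p below 0.05, and the lowest adjusted p was 0.233. Over all genes the share called was 0.162%, 2.66% and 0.318% at 1-day for STR/ort minus MRL/MpJ, STR/ort minus C57BL/6 and C57BL/6 minus MRL/MpJ. It was 0.884%, 0.491% and 0% at 1-week, and 0.451%, 0.0462% and 0% at 2-weeks.

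One day after injury few of these genes were called between strains. In contralateral joints Hspa1b alone was called, higher in STR/ort than in MRL/MpJ (0.69, adjusted p = 0.0166) and C57BL/6 (1.23, adjusted p = 0.000302), 1 of 10 in each comparison beside 22.6% and 10.5% of all genes. In these 2 comparisons 6 and 4 of the 10 had an unadjusted p below 0.05. The summed reads of Hspa1a and Hspa1b were called in both (0.61, adjusted p = 0.0277, and 1.12, adjusted p = 0.000523). The first of these calls was lost without MRL/MpJ replicate 5, without STR/ort replicate 4, with the RUVg factors and with housekeeping scaling, while its size stayed between 0.55 and 1.08. Between C57BL/6 and MRL/MpJ contralateral joints 0 of 10 were called by edgeR and by DESeq2 beside 14.8% of all genes, with 3 unadjusted p-values below 0.05. In injured joints Hspb1 alone was called, 0 of 10 for STR/ort against MRL/MpJ beside 20.3% of all genes, with 4 unadjusted p-values below 0.05, 1 of 10 for STR/ort against C57BL/6 beside 12.4%, and 1 of 10 for C57BL/6 against MRL/MpJ beside 16.3%. Hspb1 was higher in injured STR/ort than in injured C57BL/6 joints (1.11, adjusted p = 0.0046) and lower in injured C57BL/6 than in injured MRL/MpJ joints (-0.98, adjusted p = 0.0088), the latter not with the RUVg factors (-0.42 at the least).

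At 1-week some of the chaperones were called higher in STR/ort, among them Hspa5, which had not been called between strains at 0-day. In contralateral joints 4 of 10 were called higher than in MRL/MpJ beside 24.4% of all genes, and 2 of 10 higher than in C57BL/6 beside 22.2%, a share close to that of all genes. In injured joints 5 of 10 were called higher against each strain, beside 29.5% and 25.1% of all genes. Between C57BL/6 and MRL/MpJ 0 of 10 were called by edgeR or DESeq2 in contralateral and in injured joints, beside 8.53% and 9.47% of all genes, with 1 and 0 unadjusted p-values below 0.05. The median over the 10 genes was 0.49 and 0.56 against MRL/MpJ and 0.31 and 0.51 against C57BL/6 in contralateral and injured joints, while the median of all genes lay between -0.01 and 0.01. Dnajb1, high in STR/ort at 0-day, was not called in any of the 4, at -0.20 and -0.23 against MRL/MpJ and -0.05 and -0.15 against C57BL/6.

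Hspa5 at 1-week was at 1322, 1107, 980.7 and 1197 CPM in STR/ort contralateral joints and at 1721, 1449.9, 1292, 1245 and 1491 CPM in STR/ort injured joints. MRL/MpJ joints were at 574 to 643 CPM (contralateral) and 678 to 735 CPM (injured), and C57BL/6 joints at 569 to 614 CPM and 646 to 694 CPM. No STR/ort joint fell within the range of the other strains, and the differences from MRL/MpJ were 0.93 (adjusted p = 1.44e-09) in contralateral and 1.00 (adjusted p = 2.07e-11) in injured joints. Those from C57BL/6 were 0.99 (adjusted p = 1.24e-10) and 1.095 (adjusted p = 6.59e-12). These 4 calls held under every alternative and without any 1 library.

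Hspa8 at 1-week was at 2362 to 3330 CPM in STR/ort contralateral and 2502 to 3210 CPM in injured joints, and was called against MRL/MpJ in both (0.62, adjusted p = 4.27e-05, and 0.68, adjusted p = 1.37e-06) and against C57BL/6 in injured joints (0.76, adjusted p = 3.51e-07). Hsph1 was called in the same 3 comparisons (0.70, adjusted p = 0.000402, 0.73, adjusted p = 5.11e-05, and 0.70, adjusted p = 0.000105). The Hspa8 calls against MRL/MpJ were lost with 2 RUVg factors and with housekeeping scaling, in contralateral joints also without MRL/MpJ replicate 2 or STR/ort replicate 4, and the Hsph1 calls were lost with housekeeping scaling, where differences of 0.53 to 0.58 fell just under the fold threshold. The largest differences of Hsph1 under an alternative were 1.21 to 1.32. Hspa1b was called in all 4 comparisons of STR/ort with the other strains, between 1.68 and 2.09, and Hspa1a in injured joints, against MRL/MpJ (1.52, adjusted p = 0.00195) and C57BL/6 (1.11, adjusted p = 0.0145). All of these Hspa1a and Hspa1b calls were lost with 2 RUVg factors, which left 0.68 for Hspa1a in injured joints and 0.83 for Hspa1b in contralateral joints against MRL/MpJ. With 1 factor the call of Hspa1b in contralateral joints against C57BL/6 was kept (1.81) and the others were lost. Under every alternative the difference of Hspa1b from C57BL/6 stayed at 1.61 or more in contralateral and 1.11 or more in injured joints. Without STR/ort injured replicate 5 the difference of Hspa1a from C57BL/6 was 0.70, and its call was lost. With the reads of both genes summed, STR/ort contralateral joints were called higher than MRL/MpJ (1.37, adjusted p = 0.00157) and C57BL/6 (1.54, adjusted p = 0.000282).

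**Figure D5:**
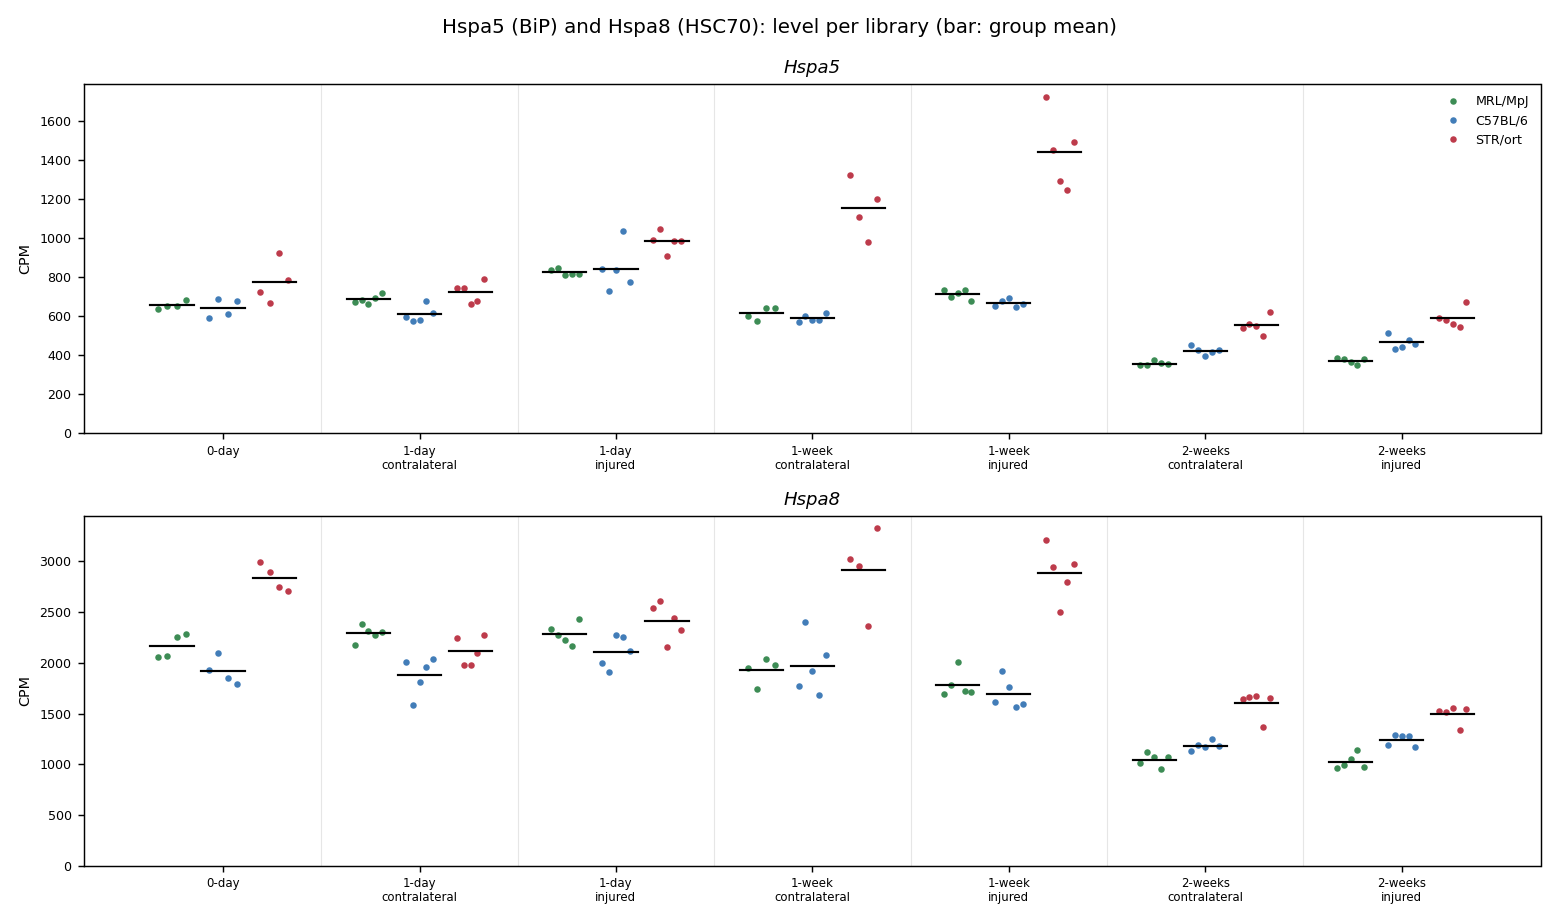
Levels of Hspa5 and Hspa8 in CPM on linear axes, 1 point per library with a bar at the group mean, for each strain, time and joint. At 1-week the STR/ort libraries of Hspa5 (980.7 to 1721 CPM) lie apart from those of the other strains, which reach 735 CPM. Libraries of 2-weeks are a separate batch.

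Part of the ER list, 19 other chaperones and folding enzymes of that compartment, was called as well. At 1-week 12 of 19 were called against MRL/MpJ in contralateral joints and 12 in injured joints, all higher in STR/ort, beside 24.4% and 29.5% of all genes called in either direction. In the same joints 10 and 13 of 19 were higher than in C57BL/6, beside 22.2% and 25.1% of all genes. Relative to STR/ort 0-day joints 10 of 19 were higher in STR/ort contralateral joints at 1-week, with a median of 0.65, beside 13.8% of all genes. Markers of other tissues differed in the same joints. Synovial fibroblast markers were higher in STR/ort contralateral joints at 1-week for 4 of 4 against both strains (sums of 6136 to 18680 CPM, against 1255 to 1338 CPM in MRL/MpJ and 854 to 1305 CPM in C57BL/6), cartilage markers for 6 of 6 and bone markers for 5 of 5, while fast muscle markers were lower for 9 of 9 against MRL/MpJ and 4 of 9 against C57BL/6. Their part in the level of Hspa5 was not tested.

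At 2-weeks STR/ort contralateral joints were higher than those of MRL/MpJ for 5 of 10 genes beside 13.8% of all genes, and higher than those of C57BL/6 for 3 of 10 beside 9.78%. Injured joints differed for 2 of 10 genes against MRL/MpJ beside 18.9%, and for 0 of 10 against C57BL/6 beside 10.4%, by edgeR and by DESeq2 alike, with 5 unadjusted p-values below 0.05. Between C57BL/6 and MRL/MpJ 0 of 10 were called by either tool in contralateral joints beside 9.83% and in injured joints beside 11.5%, with 3 and 4 unadjusted p-values below 0.05. Hspa1a (1.59, adjusted p = 0.000186) and Hspa1b (1.80, adjusted p = 1.43e-05) led the contralateral difference from MRL/MpJ, followed by Hsph1 (0.69, adjusted p = 8.29e-07), Hspa5 (0.62, adjusted p = 2.05e-09) and Hspa8 (0.61, adjusted p = 2.17e-08). Hspa5 and Hspa8 were close to the fold threshold and were lost without STR/ort replicate 5 and without MRL/MpJ replicate 4, respectively. Against C57BL/6 the called genes were Hspa1a (1.30, adjusted p = 0.0021), Hspa1b (1.76, adjusted p = 4.15e-05) and Hspb1 (0.61, adjusted p = 0.00302), and the Hspb1 call was lost with the RUVg factors (0.29 at the least), without C57BL/6 replicate 1, 2 or 5 and without STR/ort replicate 3 or 5. In injured joints Hspa1b (1.01, adjusted p = 0.00782) and Hspa5 (0.67, adjusted p = 2.12e-10) were higher in STR/ort than in MRL/MpJ. Markers of other tissues differed in the contralateral joints at 2-weeks as well. The summed synovial fibroblast markers were at 1069 to 2148 CPM in STR/ort, above the 449 to 590 CPM of MRL/MpJ and the 336 to 535 CPM of C57BL/6, and 3 of 4 and 2 of 4 of them were called higher. Cartilage markers were called higher than in MRL/MpJ for 6 of 6 and higher than in C57BL/6 for 0 of 6, and immediate early genes were called higher for 5 of 13 against each strain. Their part in the chaperone differences was not tested.

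Levels within 0-day joints were compared per kilobase of exon, with the exons of all protein-coding transcripts of a gene merged. Hspa8 had the highest level of the 10 genes in each strain (849, 751 and 1111 CPM per kb in MRL/MpJ, C57BL/6 and STR/ort) and Hspa1a the lowest (0.350, 0.270 and 4.34 CPM per kb). Hspa1b was next lowest (0.434, 0.559 and 7.09 CPM per kb), and the order of this pair rests on the uncertain division of their reads. Hspe1, Hsp90aa1, Hspa5 and Hspd1 lay between 116 and 253 CPM per kb, and Hspb1, Hsph1 and Dnajb1 between 12.4 and 51.6 CPM per kb. Over the 21 groups the 0-day STR/ort group had the highest mean of Hspa1a, Hspa1b, Hsph1, Dnajb1, Hsp90aa1, Hspe1 and Hspd1. Its libraries overlapped those of the next group for Hsp90aa1, Hspe1 and Hspd1. Their means were 924 ± 286 against 779 ± 81.1 CPM, 196 ± 20.6 against 186 ± 23.4 CPM and 369 ± 30.5 against 364 ± 36.4 CPM (SD). For Hspa1b the next group, STR/ort contralateral joints at 1-week, reached 9.12 CPM in its highest library, below the lowest 0-day STR/ort library at 15.5 CPM. For Hspa1a the next group, STR/ort contralateral joints at 2-weeks, reached 10.1 CPM and so overlapped the 0-day STR/ort joints. Hsph1 of STR/ort at 0-day and in contralateral joints at 1-week (212 ± 50.02 CPM, n = 4, and 198 ± 27.9 CPM, n = 4) did not differ beyond its spread. The highest group of Hspa8 and of Hspa5 was STR/ort at 1-week (contralateral and injured joints, respectively), and that of Hspb1 was STR/ort contralateral joints at 2-weeks.

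Some levels stood apart at 2-weeks, where time and experimental batch cannot be told apart. Hspe1 was at 46.3 to 57.7 CPM in all 30 libraries of 2-weeks and at 119.8 to 224.7 CPM in the 70 others. Group means of Hsp90aa1 were 304 to 371 CPM at 2-weeks and 533 to 924 CPM at other times, and those of Hspd1 220.4 to 269.5 CPM against 296 to 369 CPM. Group means of Hspa8 were 1023 to 1599 CPM at 2-weeks and 1690 to 2918 CPM at other times. Those of Hspa5 were 357 to 588.1 CPM against 588.3 to 1440 CPM. Those of Hspb1, at 62.6 to 96.7 CPM and 20.8 to 85.6 CPM, overlapped.

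Among the other proteostasis genes, the small heat shock proteins also differed at 0-day. Of 6 measured besides Hspb1, 3 were higher in STR/ort than in MRL/MpJ and 5 higher than in C57BL/6 at 0-day, beside 14.8% and 13.8% of all genes called in either direction. Cryab, a small heat shock protein abundant in muscle, was the called gene with the largest difference from MRL/MpJ (0.96, adjusted p = 1.33e-05), and Hspb7, also of muscle, that from C57BL/6 (1.13, adjusted p = 1.77e-05). In STR/ort contralateral joints 4 of the 6 were lower than at 0-day at 1-day, beside 10% of all genes, and 6 of 6 at 1-week, beside 13.8%. Of the 24 heat shock factors and cochaperones, 2 were higher in STR/ort than in MRL/MpJ and 3 than in C57BL/6, shares no larger than those of all genes. Named after their values were seen, these were the cochaperones Bag3 (0.70 and 0.85), Dnaja1 (0.93 and 0.76) and, against C57BL/6, Dnajb5 (0.79). Of the 7 measured CCT chaperonin subunits 0 were called in these comparisons, and of the 6 other mitochondrial chaperones 0.

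With injury, 0 other proteostasis genes were called in MRL/MpJ, where 2.02%, 3.13% and 1.16% of all genes were called at the 3 times. The interaction of strain and injury was called for 1 of 19 ER genes (Serpinh1, STR/ort minus C57BL/6 at 1-day), beside 2.66% of all genes. It was also called for 1 of 7 other cytosolic HSP70, HSP110 and HSP90 genes (Hspa12a, STR/ort minus MRL/MpJ at 1-week), beside 0.884%. Both were lower and named after their values were seen. In C57BL/6 at 1-day 2 of 6 small heat shock proteins and 4 of 19 ER genes were higher, beside 5.6% of all genes, with Hspb7 the largest (1.11, adjusted p = 0.00126), and at 1-week 3 of 6 small heat shock proteins were lower, beside 5.82% of all genes, Hspb7 again the largest (-1.12, adjusted p = 0.000742). Serpinh1, the collagen-specific chaperone of the ER, was higher with injury at 1-week in C57BL/6 (0.80, adjusted p = 0.00133) and STR/ort (0.73, adjusted p = 0.00377), and at 2-weeks in STR/ort (0.72, adjusted p = 2e-07). At 1-day its means in injured and contralateral joints were 488 and 264 CPM in C57BL/6. They were 364 and 304 CPM in STR/ort, and 201 and 139 CPM in MRL/MpJ. In STR/ort Dnajb5, a cochaperone, was lower at 1-day (-0.91, adjusted p = 0.00331) and Hspb6 at 1-week (-0.83, adjusted p = 0.00474). At 0-day Serpinh1 was higher (0.97, adjusted p = 4.83e-06) and Hspb3 lower (-0.94, adjusted p = 0.000464) in C57BL/6 than in MRL/MpJ.

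How the chaperones varied between replicate libraries, after group means were removed, is given as a description over 100 libraries that share tissue composition and depth. Their pairwise correlations ran from negative to strongly positive. Pearson's r of log2 CPM was 0.72 for Hsph1 with Hspd1, 0.66 for Hsph1 with Hspa8, 0.60 for Hspe1 with Hspd1 and 0.50 for Hspa1a with Hspa1b, whose division of reads is uncertain. Hsp90aa1 with Hspa8 (0.05) and Hspa1a with Hspe1 (-0.02) were near 0. Dnajb1 had a negative r with each of the others except Hsp90aa1 (0.29), down to -0.42 with Hsph1 and -0.41 with Hspd1. Of 14407 other genes, those most like Hspa1a were Nr4a3 (0.475), Atf3 (0.462), Slc38a2 (0.446), Stc1 (0.445) and Ahsa2 (0.432). Those most like Hspa5 were Hsp90b1 (0.8002), Dnajc3 (0.767), Pdia4 (0.757), Creld2 (0.694) and App (0.676), of which Hsp90b1, Dnajc3, Pdia4 and Creld2 encode proteins of the ER.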

How the data were processed

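RNA of whole knee joints was enriched for poly(A)+ transcripts and sequenced. The authors aligned reads to mm10 with TopHat2 (version 2.0.11) and deposited unnormalized counts of reads per RefSeq gene made with featureCounts; the treatment of reads that map to several places, the strand setting and the read length are not given in the sources used here. All 100 columns matched a label, 3 repeated entries were dropped, and the study's filter (2 counts or more in 5 or more libraries) removed 0 of 17310 genes.

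Counts were tested with edgeR (version 4.0.16, limma 3.58.1, R 4.3.3) using TMM factors and the quasi-likelihood F test, with 1 fit each for 0-day, 1-day, 1-week, 2-weeks and the 40 uninjured libraries of batch 1. Intervals are 1.96 SE. A prior count of 2 was used for log2 CPM. The test was also run on simulated counts with known changes, placed only in genes above a minimum mean count. Its outcome is not used as support here. The thresholds are those of the study. The study also removed unwanted variation with 25 housekeeping genes, without the number of factors being given, so this was run as an alternative (RUVg, 1 or 2 factors, Hsp90ab1 being 1 of the 25). Other alternatives were RLE factors, housekeeping scaling, DESeq2 (version 1.42.0), other filters, fits of the compared groups only, Hspa1a and Hspa1b summed, a replicate block and each library left out.

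Libraries of a group are separate joints; the labels give an animal only at 2-weeks. Deviations from group means correlated between injured and contralateral libraries of 1 number at 0.16 to 0.37 in STR/ort at 1-week, where all 4 pairs were over 0.1. These are treated as paired on that ground alone. The labels pair the joints of 2-weeks (correlations from -0.28 to 0.45). There 0 of 5 MRL/MpJ pairs were over 0.1, so in that strain the correlations did not follow the labels.

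All 10 members are counted in every comparison, and those whose values bear on a count are named. Of other proteostasis lists, the called gene with the largest change in each direction is named at 0-day and with injury, plus Hsf1 and Hsp90ab1, and the 5 genes most like Hspa1a and Hspa5. The members and lists were chosen with earlier results of these data known. Counting error limits Hspa1a and Hspa1b most, at 3 to 151 and 5 to 255 reads per library.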

Additional observations from a re-analysis of the deposited data

Results flagged for a closer look

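Over 210 sets of values (10 genes in 21 groups of 4 or 5 libraries), 14 held a library far from the others of its group by Dixon's criterion, which chance alone flags in about 1 of 20 sets. For Hspa1b these were 1.53 CPM in MRL/MpJ contralateral joints (replicate 4, low) and 0.577 CPM in C57BL/6 contralateral joints (replicate 1, low), both at 1-week. For Hsph1 they were 132 CPM in C57BL/6 contralateral joints at 1-day (replicate 1, high), 207 CPM in the same strain and joint at 1-week (replicate 2, high) and 106 CPM in STR/ort contralateral joints at 2-weeks (replicate 4, low). Dnajb1 was high in MRL/MpJ contralateral replicate 5 at 1-day (55.3 CPM) and low in MRL/MpJ injured replicate 3 at 1-week (38.5 CPM). Hsp90aa1 was low in STR/ort contralateral replicate 2 at 1-day (519.9 CPM), high in C57BL/6 contralateral replicate 5 at 1-week (770.2 CPM) and high in STR/ort injured replicate 5 at 2-weeks (351 CPM). Hspb1 was high in C57BL/6 injured replicate 3 at 2-weeks (84.3 CPM). Hspa8 was high in MRL/MpJ injured replicate 3 at 1-week (2003 CPM) and low at 2-weeks in STR/ort replicate 4, in both the injured (1338 CPM) and the contralateral joint (1365 CPM).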

How the results depend on the processing

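Of 56 calls over all comparisons, 55 were kept with RLE factors, 55 with DESeq2, 56 with filterByExpr, 56 with no filter, 54 with only the compared groups, 49 with housekeeping scaling, 43 with 1 RUVg factor (with or without Hsp90ab1 among the housekeeping genes) and 39 with 2, and 0 changed sign. The RUVg fits also gained calls, 12 with 1 factor, 10 without Hsp90ab1 and 8 with 2, and housekeeping scaling gained 6. The calls against 0-day went from 11 to 7 with 1 RUVg factor, 7 with 2 and 7 with 1 factor without Hsp90ab1; the cause was not tested. With the replicate block 9 injury calls were made against 4 without it, the 4 kept and 5 gained: Hspa1a and Hspa1b in STR/ort at 1-week and Hspa1a in STR/ort at 2-weeks, given above, and Hspa1a at 1-week in MRL/MpJ (-1.24, adjusted p = 0.0245) and C57BL/6 (-0.94, adjusted p = 0.0188). In all strains at 1-day and 1-week the joints share only a number, with correlations from -0.21 to 0.43. With each library left out, the calls ranged over 10 to 11 between strains at 0-day, 3 to 6 with injury, 14 to 19 between strains in contralateral and 13 to 17 in injured joints, 9 to 12 against 0-day, and 0 to 0 for the interaction. The Hspb1 interaction at 1-day of STR/ort minus MRL/MpJ, not called, ranged from -0.22 to 0.39. Without TMM the mean of Hspa8 in STR/ort at 0-day was 2653 CPM, against 2837 CPM. Depth limits Hspa1a and Hspa1b outside STR/ort at 0-day, where a library held as few as 3 reads.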
